A study of Rattus norvegicus with 48 samples.

Results

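Livers of rats given ischemic preconditioning and ischemic postconditioning together (IPC+IPO) were compared, gene by gene, with livers given ischemia and reperfusion alone (IRI). The comparison covers the 20 arrays, of 48 in the series, whose titles are IPC+IPO 31 to 40 and IRI 1 to 10, with 10 rats in each group and 1 array per rat. Expression was measured in biopsies of the right liver lobe on Affymetrix arrays, and every rat was a male Wistar under the same anaesthesia, with a midline laparotomy and a mobilised hepatoduodenal ligament. In both groups the blood supply of the whole liver was stopped for 30 min and restored for 30 min, and the biopsy was then taken. IRI rats had nothing else. In IPC+IPO rats the long ischemia was preceded by a short one of 10 min with 10 min of flow, and it was followed at once by 3 cycles, each with flow for 30 sec and occlusion for 30 sec. Other groups were the sham rats (8, laparotomy without ischemia), the preconditioned rats (IPC, 10) and the postconditioned rats (IPO, 10). A response to the insult and a response to the added clamping, or to the longer time under anaesthesia, cannot be told apart, since no group had the 2 interventions without the 30 min of ischemia.

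Ischemia starves hepatocytes of oxygen and ATP, and the return of blood adds oxidants, a calcium load and activation of Kupffer cells, the resident macrophages of the liver sinusoid. Short clampings before the insult (preconditioning) or short interruptions at the start of reperfusion (postconditioning) are known to lessen the injury in many organs, through adenosine, nitric oxide and protective kinases among other mediators. Within the first hour the tissue answers mainly with immediate-early genes, which code for transcription factors and feedback inhibitors and need no protein synthesis to be switched on, while mRNAs of metabolic enzymes and heat shock proteins follow.

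All values are deposited log2 expression values, so a difference of 1 is a 2-fold difference; differences are IPC+IPO minus IRI with their standard error (SE). No gene passed the threshold set for the comparison, an adjusted p under 0.05 over 14506 genes (limma, 0 called, 0%). The smallest adjusted p was 0.0883, and 250 genes (1.72%) had one under 0.1. At an unadjusted p under 0.05 there were 3118 genes (21.5%), of which 1673 were higher (11.5%) and 1445 lower (9.96%) in IPC+IPO. None of the 14506 genes separated the groups completely. Among the 24 named genes of smallest p, none past the threshold, 15 were higher in IPC+IPO, such as the sphingolipid enzyme genes Kdsr and Cers2, glutaredoxin (Glrx) and the vascular stress gene Apold1. The other 9 were lower, such as the syntaxin gene Stx11, Oxct2b and the transcription factor gene Bhlha15. Lists of fatty acid oxidation genes and macrophage markers had medians of 0.27 and 0.35, and ribosomal protein genes had a median of -0.15. How many genes were called depended on a few arrays, described next.

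The arrays differed in spread, the standard deviation (SD) over genes of an array's values. IRI animal 7 had a spread of 1.537 and IPC+IPO animals 37 and 38 had 1.669 and 1.498, while the other 9 IRI arrays lay between 1.703 and 1.917 and the other 8 IPC+IPO arrays between 1.85 and 1.965. The mean correlation with the other arrays was 0.888 for IRI animal 7 and 0.933 for IPC+IPO animal 38. Mean spread was 1.86 ± 0.153 (SD, n = 10) in IPC+IPO and 1.77 ± 0.111 (SD, n = 10) in IRI, a difference of 0.0885 that did not pass (two-sided permutation test, p = 0.157). Without IPC+IPO animal 38 it was 0.128 (permutation test, p = 0.014). Of the 8 sham arrays 6 also had a spread under 1.7, from 1.61 to 1.699, and no IPC or IPO array did. No batch, day or slide is given in the labels. Hepatocyte markers were abundant in every array: the mean level of 15 of them lay between 11.5 and 12.2 in the IPC+IPO arrays and between 11.7 and 12.1 in the IRI arrays.

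**Figure D1:**
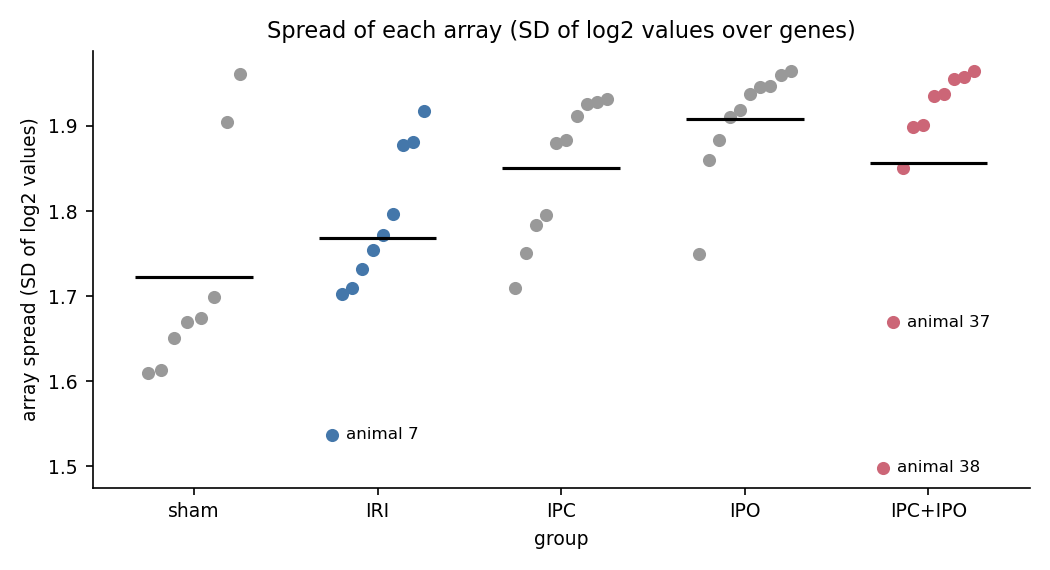
Array spread (vertical axis, SD over genes, log2) for each of the 48 rats by group (horizontal axis); lines mark group means. IPC+IPO animals 37 and 38 and IRI animal 7 lie below the other arrays of their groups, at 1.669, 1.498 and 1.537.

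The sign of the difference followed the level of the gene. When the genes were divided by mean level into 3 parts of nearly equal size, the median difference was -0.11 in the 4836 dimmest, -0.03 in the 4835 of middle level and 0.18 in the 4835 brightest. Of the brightest, 1199 genes were higher (24.8%) and 165 lower (3.41%) at an unadjusted p under 0.05; of the dimmest, 40 were higher (0.827%) and 744 lower (15.4%). The median over all genes was -0.02. With the spread of each array as a covariate in the fit the 3 medians were -0.01, -0.02 and 0.01. Spread is computed from these same values and is wider where bright genes are brighter and dim genes dimmer. The covariate is therefore bound to take out much of such a pattern, here and in the list medians below. What the pattern comes from was not tested. Because the sign followed the level, counts for the gene groups below are to be read against the 24.8% and 3.41% of the bright genes as well as the 11.5% and 9.96% of all genes. These shares are not repeated at every count, and the groups differ in how many of their members are bright.

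**Figure D2:**
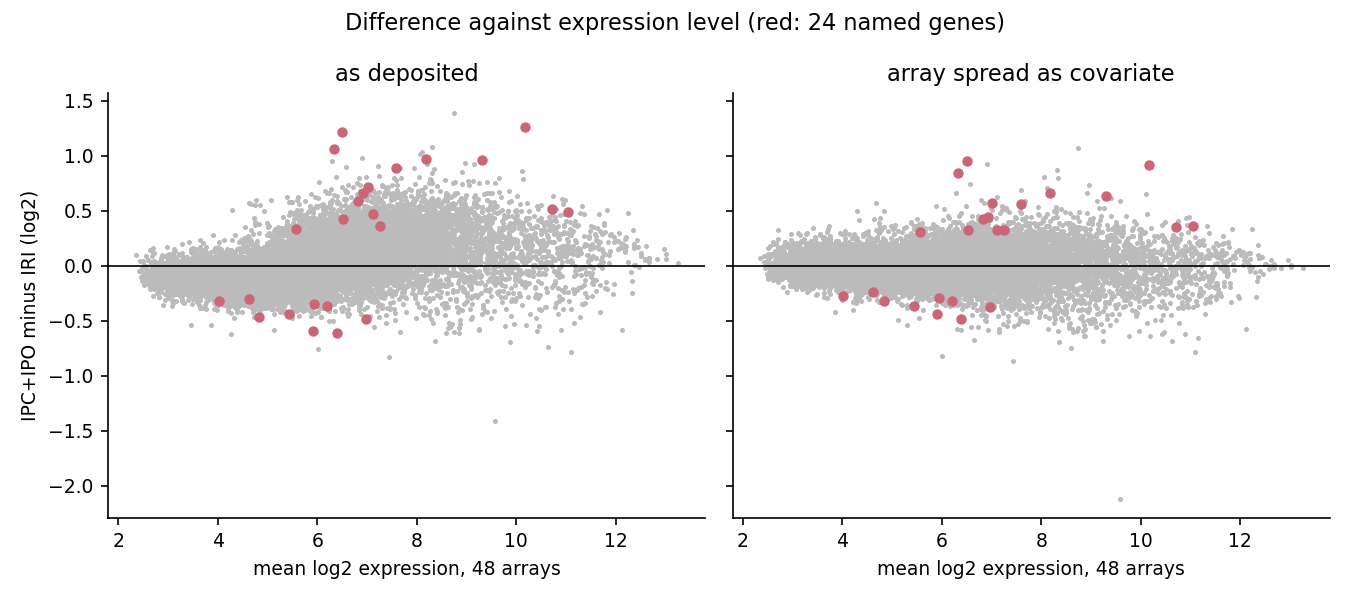
Difference between IPC+IPO and IRI (vertical axis, log2) against mean log2 expression over 48 arrays (horizontal axis), 1 point per gene, with the 24 genes of smallest p in red; left as deposited, right with array spread as a covariate. On the left the cloud tilts from a median of -0.11 in the dimmest genes to 0.18 in the brightest, and on the right it lies level, with medians of -0.01 and 0.01. The covariate is computed from the same values, so it is bound to take out much of the tilt.

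Single arrays decided how many genes were called. Without the 3 arrays of low spread in these groups, and with all sham arrays kept, 1612 genes were called, 1080 higher (7.45%) and 532 lower (3.67%) in IPC+IPO. Without IPC+IPO animal 38 alone there were 1705, without IRI animal 1 there were 784, and without IPC+IPO animal 37 there were 351. Leaving out IRI animal 6 gave 2 calls, Kdsr and Lsm12, and each of the remaining 16 arrays gave 0. Weighting each array by its estimated precision gave 4484 calls, 2739 higher and 1745 lower. With spread as a covariate 9 genes were called (0.062%): Kdsr, Cers2, Glrx, Zmpste24, Nqo2 and Dnajc8 higher and Mgat2, Stk25 and C5h1orf122 lower, 7 of which were also called without the 3 arrays. Renewed quantile normalization gave 113 calls, among them all 9 of these genes.

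**Figure D3:**
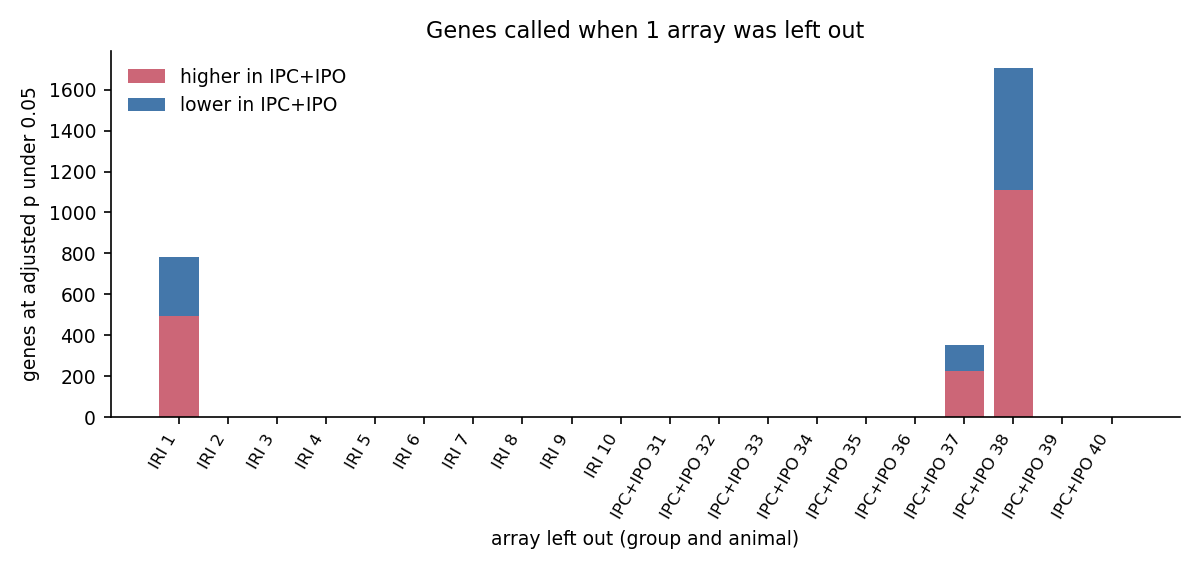
Number of genes at an adjusted p under 0.05 (vertical axis) when the array on the horizontal axis was left out, stacked by direction. The count is 1705 without IPC+IPO animal 38, 784 without IRI animal 1 and 351 without IPC+IPO animal 37, and 2 or 0 without any other.

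The 24 named genes of smallest p were 15 that were higher and 9 that were lower in IPC+IPO, with adjusted p values from 0.0883 to 0.0942 and sizes from 0.30 to 1.26. All 24 were called without the 3 low-spread arrays, at adjusted p values from 0.0203 to 0.0351, and 4 with the covariate. Because the 24 were picked by small p in the same arrays, and 1612 genes were called without those 3, this is no separate support for them. All 24 kept their direction with the covariate, at 0.626 to 0.929 of their size. In 19 of them the mean of the sham rats, most of whose arrays were of low spread, lay between those of IRI and IPC+IPO. The 24 were picked by small p between IRI and IPC+IPO, which by itself favours a sham mean lying in between. The share over all genes was not counted, so no ordering of the groups is drawn from the 19. Of the 15 higher genes, IPC+IPO animal 38 had the lowest value of its group in 8 and IRI animal 7 the lowest of its group in 10.

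The gene of smallest p, Kdsr (probe set 10766959), codes for 3-ketodihydrosphingosine reductase, which makes the sphingoid base from which ceramides are built. Its values ran from 6.84 through a median of 7.22 to 7.62 in the IPC+IPO rats and from 5.49 through 6.74 to 7.03 in the IRI rats. Of the IPC+IPO rats, 9 lay above every IRI rat; the lowest IPC+IPO value was that of animal 38 and the lowest IRI value that of animal 7. The difference was 0.71 ± 0.14 (SE), 1.64-fold, with a limma adjusted p of 0.0883. It was 0.57 ± 0.12 with the covariate, 0.60 without the 3 arrays, and between 0.59 and 0.77 when single arrays were left out.

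Cers2 (probe set 10817383), the ceramide synthase that attaches very long acyl chains and is the main one in liver, was also higher. IPC+IPO rats stood at 8.88 to 10.22 with a median of 9.79, and IRI rats at 7.04 to 9.63 with a median of 8.76. The groups overlapped, with 6 IPC+IPO rats above all IRI rats, and the difference was 0.96 ± 0.22 (limma adjusted p = 0.0942). Asah1, acid ceramidase, differed by 0.54 ± 0.19 and Degs1, the desaturase that completes ceramide, by 0.55 ± 0.20 (adjusted p = 0.119 and 0.134). Of 21 sphingolipid genes measured, 12 of them bright, 7 were higher (33.3%) and 1 lower (4.76%) at an unadjusted p under 0.05, and 13 were not. The list's median was 0.20, and 0.04 with the covariate. Without the low-spread arrays 4 were called, all higher.

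Among enzymes that handle oxidants and electron carriers, Glrx (glutaredoxin, which removes glutathione from protein thiols) was at 8.12 to 9.11, median 8.69, in IPC+IPO and at 6.20 to 8.38, median 7.72, in IRI. 7 IPC+IPO rats lay above all IRI rats, and IRI animal 7, at 6.20, stood apart from the next IRI rat at 7.34. The difference was 0.97 ± 0.22 (limma adjusted p = 0.0942). Sod3, the extracellular superoxide dismutase, had values of 6.61 to 7.58, median 7.33, against 6.14 to 7.14, median 6.51; the difference was 0.66 ± 0.16, and 0.77 without the 3 arrays. In Sod3 the 3 lowest IPC+IPO values were those of animals 34, 37 and 38, and the other 7 lay above all IRI rats. Nqo2, a quinone reductase, differed by 0.75 ± 0.19 with 8 IPC+IPO rats above all IRI rats.

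Retsat (probe set 10856424), the retinol saturase, had the largest difference of the 24. It stood at 8.27 to 11.37, median 10.87, in IPC+IPO and at 8.27 to 10.70, median 9.005, in IRI, a difference of 1.26 ± 0.31 (2.4-fold, limma adjusted p = 0.0942). IPC+IPO animal 38, at 8.27, lay with the lowest IRI rats, and without the 3 arrays the difference was 1.47. Coq10b, which codes for a coenzyme Q binding protein of mitochondria, differed by 1.06 ± 0.26; 1 IPC+IPO rat lay above all IRI rats, and IRI rats ranged widely, from 4.97 to 7.39. The wider list of antioxidant genes did not follow these members. Of the list's 23 genes, 22 of them bright, 4 were higher (17.4%) and 1 lower (4.35%) at an unadjusted p under 0.05. Its median was 0.10, and -0.10 with the covariate, with Prdx6 at 0.50 ± 0.16, Hmox1 (heme oxygenase 1) at 0.50 ± 0.20 and Gpx4, which reduces lipid peroxides, at -0.29 ± 0.10.

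Of endothelial genes, Apold1 (probe set 10859262), an early response gene of stressed vascular endothelium, ran from 5.72 through 7.43 to 8.16 in IPC+IPO and from 4.96 through 5.79 to 6.90 in IRI. The 6 highest IPC+IPO rats lay above all IRI rats and the other 4 among them. The difference was 1.21 ± 0.28 (2.32-fold, limma adjusted p = 0.0942), and sham rats averaged 5.44 against 5.95 in IRI, so the order was sham, IRI, IPC+IPO. Jam2, a junctional adhesion molecule, differed by 0.42 ± 0.10. Plat, tissue plasminogen activator, differed by 0.43 ± 0.11 and Apln, the vasodilator peptide apelin, by -0.25 ± 0.07 (adjusted p = 0.0942 for each). Of 22 vasoactive and fibrinolysis genes, 5 of them bright, 6 were higher (27.3%) and 5 lower (22.7%) at an unadjusted p under 0.05. Over all genes these shares were 11.5% and 9.96%. The list's median was 0.01. Of 21 adenosine and purine genes, 3 were higher and 1 lower, among the former the receptor gene Adora2a at 0.37 ± 0.12.

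The remaining higher genes of the 24 have varied roles and share no single theme. Zmpste24, the protease that matures lamin A, differed by 0.89 ± 0.21 and Golim4, a Golgi membrane protein gene, by 0.59 ± 0.15. Clu, the secreted chaperone clusterin, differed by 0.52 ± 0.13 and Hsd17b11, a lipid droplet dehydrogenase, by 0.49 ± 0.11. Bpnt1, a phosphatase of sulfate metabolism, differed by 0.47 ± 0.12 and Ppp3cc, a catalytic subunit of calcineurin, by 0.33 ± 0.08. Lsm12, a member of the LSM family of RNA-binding proteins, was at 7.13 to 7.53, median 7.26, against 6.51 to 7.37, median 6.94 (difference 0.36 ± 0.08). The sham mean of Lsm12 was 7.41, closer to IPC+IPO (7.28) than to IRI (6.92), and none of the 3 low-spread arrays held the lowest or highest value of its group.

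Of the 9 lower genes 3 belong to the dimmest genes, 5 to those of middle level and 1 to the brightest, with differences from -0.61 to -0.30. They included the transcription factor genes Bhlha15 (-0.61 ± 0.14), Foxd3 (-0.60 ± 0.15) and Aire (-0.35 ± 0.09), which have little known role in hepatocytes, and Taf1c (-0.37 ± 0.09), a subunit of the factor that starts ribosomal RNA transcription. Stx11, Oxct2b, Prr18, Prph2 and Hipk4 made up the rest, between -0.49 and -0.30. In Hipk4 8 IPC+IPO rats lay below all IRI rats, at 4.46 to 5.16 against 4.64 to 5.77. IPC+IPO animals 34 and 37 had the highest value of their group in 4 of the 9 genes each.

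**Figure D4:**
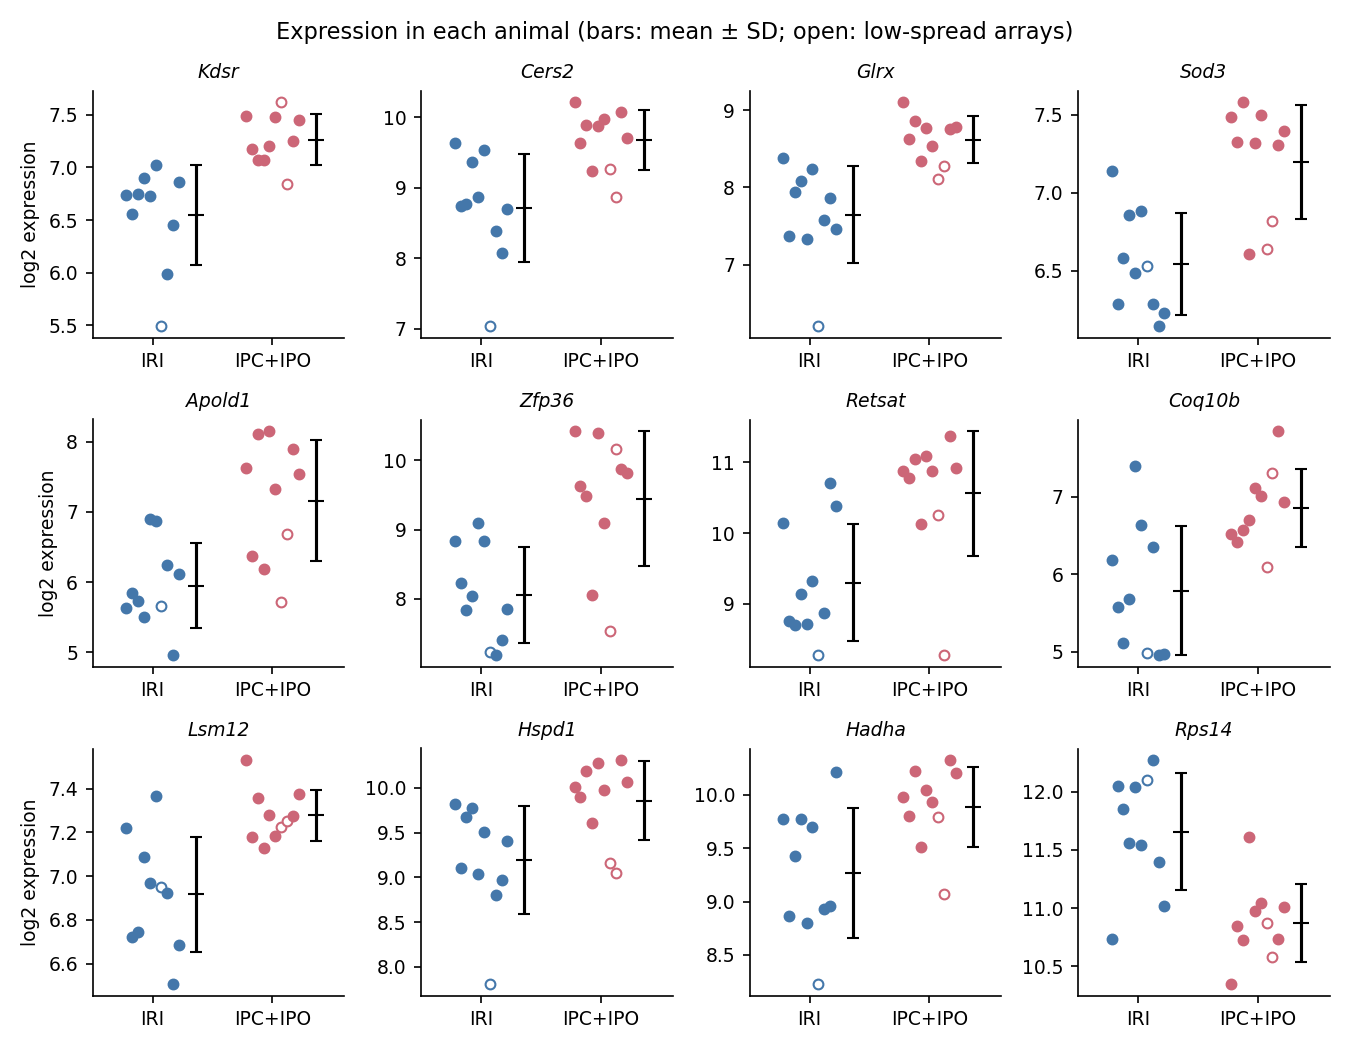
Log2 expression (vertical axes) of 12 genes in each IRI and IPC+IPO rat; bars show mean ± SD (n = 10) and open circles the 3 arrays of low spread. In Kdsr 9 of 10 IPC+IPO rats lie above every IRI rat; in Retsat and Zfp36 1 IPC+IPO rat lies below the IRI median.

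The largest fold differences belonged to early response and metabolic genes. Of the 14506 genes 7 were at least 2-fold higher (0.0483%) and 1 at least 2-fold lower (0.00689%). The 7 were Zfp36, Retsat, Apold1, Atf3, Coq10b, Angptl4 and Fgf21, and the 1 was Ugt2b. Zfp36 (probe set 10720215) codes for tristetraprolin, which binds AU-rich elements and speeds the decay of cytokine mRNAs. IPC+IPO rats stood at 7.54 to 10.42, median 9.72, and IRI rats at 7.19 to 9.10, median 7.94. The 7 highest IPC+IPO rats lay above all IRI rats, and the difference was 1.39 ± 0.36 (2.62-fold, limma adjusted p = 0.0942), with the sham mean at 7.33. Atf3, a stress-induced transcription factor gene, differed by 1.08 ± 0.54 (adjusted p = 0.235) with values from 6.26 to 10.74 in IPC+IPO and 6.64 to 10.96 in IRI, so that its groups overlapped over nearly their whole range, although the medians were 8.97 and 7.43.

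Of 25 immediate-early transcription factor genes, 6 were higher (24%) and 1 lower (4%) at an unadjusted p under 0.05 and 18 were not past it, with a median of 0.27 and of 0.22 with the covariate. These shares are close to those of the bright genes (24.8% and 3.41%); 14 of the 25 are bright. Nr4a1, an orphan nuclear receptor gene, ran from 5.79 through 7.04 to 8.13 in IPC+IPO and from 5.70 through 6.09 to 6.86 in IRI, a difference of 0.89 ± 0.26 (limma adjusted p = 0.0951). Egr1 differed by 0.87 ± 0.35 and Ier2 by 0.72 ± 0.27, while Egr4 differed by -0.39 ± 0.14. Among 15 MAPK phosphatases and feedback inhibitors, which switch the kinase signal off again, 4 were higher (26.7%) and 1 lower (6.67%). Of these 15 genes 7 are bright, and Dusp6 differed by 0.60 ± 0.24 and Dusp1 by 0.68 ± 0.31. In Dusp1 6 IPC+IPO rats lay above all IRI rats and 2 below all of them. Of 20 mRNA decay and RNA-binding regulators, 15 of them bright, 10 were higher (50%) and 1 lower (5%), against 24.8% and 3.41% of bright genes. Together these were 55% of the list past an unadjusted p of 0.05, against 21.5% of all genes. With the covariate 4 were higher and 1 lower. Hnrnpd differed by 0.64 ± 0.19 and Zfp36l1, a paralogue of Zfp36, by 0.76 ± 0.24. The median of this list was 0.27, and 0.11 with the covariate. The median of the immediate-early list was -0.15 against IPC and 0.09 against IPO.

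Promoters of several of these genes hold the short motifs that such responses are known to use, and a window around the match is shown for each of 4 genes whose values are given here. Sequences are from RefSeq (GRCr8), 5′ to 3′ on the strand of the gene, with the match in capitals. Zfp36 (chr1:92799109-92799170, minus strand) and Rnd3 (chr3:55998601-55998670, minus strand) hold a CArG box, the site of serum response factor. Ier2 (chr19:40399277-40399344, plus strand) and Dusp1 (chr10:17184699-17184766, plus strand) hold TGACGTCA, the cyclic AMP response element.
Zfp36: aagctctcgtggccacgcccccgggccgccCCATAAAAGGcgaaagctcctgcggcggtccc
Rnd3: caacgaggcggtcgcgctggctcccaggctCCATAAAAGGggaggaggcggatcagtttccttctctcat
Ier2: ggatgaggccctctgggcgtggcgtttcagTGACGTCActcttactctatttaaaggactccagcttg
Dusp1: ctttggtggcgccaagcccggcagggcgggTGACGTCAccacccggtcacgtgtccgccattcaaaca
In the 250 bases before the start site, on either strand, a CArG box was present in 501 of 33469 promoters (1.5%) and TGACGTCA in 531 (1.59%). Of the 15 immediate-early genes with a promoter in the table, 4 held the former and 3 the latter; of 15 actin and serum response factor targets with one, 3 held a CArG box. A match of letters shows no binding in these livers. Rnd3, a small GTPase gene of the actin list, differed by 0.82 ± 0.27. Of the 19 genes of that list, 11 of them bright, 6 were higher (31.6%) and 0 lower at an unadjusted p under 0.05. The list's median was 0.20, and 0.05 with the covariate.

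Chaperone genes had medians above 0, and most are bright genes, whose median was 0.18 and of which 24.8% were higher. Of 20 cytosolic heat shock chaperone genes, 15 of them bright, 6 were higher and 0 lower at an unadjusted p under 0.05 (30%), with a median of 0.27, and of 11 mitochondrial chaperones and proteases, all bright, 4 were higher and 0 lower (36.4%), with a median of 0.31. With the covariate both medians were 0.09, with 2 higher and 0 lower in the former list and 1 higher and 2 lower in the latter. Dnaja1, an HSP40 co-chaperone gene, was at 9.58 to 10.60, median 10.16, against 9.04 to 9.96, median 9.52; 7 IPC+IPO rats lay above all IRI rats, and the difference was 0.58 ± 0.15 (limma adjusted p = 0.0942). Hspd1, the mitochondrial HSP60, was at 9.05 to 10.32, median 10.00, against 7.80 to 9.82, median 9.26, a difference of 0.67 ± 0.19 (limma adjusted p = 0.0942). Its 2 lowest IPC+IPO values and its lowest IRI value were those of the low-spread arrays. Dnajb4 differed by 0.58 ± 0.16 and Hsph1, an HSP110, by 0.35 ± 0.14. The medians of these lists were 0.03 and 0.008 against IPC and -0.19 and -0.165 against IPO.

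Heat shock elements, the sites of heat shock factor, were searched as GAANNTTC or TTCNNGAA in the same window, and the 3 chaperone genes above that hold one show how differently it sits. All are given as before, from Dnaja1 (chr5:60638193-60638260, plus strand), Hspd1 (chr9:64084232-64084287, minus strand) and Hsph1 (chr12:10427233-10427367, plus strand).
Dnaja1: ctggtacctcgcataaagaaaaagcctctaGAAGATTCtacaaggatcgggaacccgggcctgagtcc
Hspd1: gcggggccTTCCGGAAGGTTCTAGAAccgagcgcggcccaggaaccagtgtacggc
Hsph1: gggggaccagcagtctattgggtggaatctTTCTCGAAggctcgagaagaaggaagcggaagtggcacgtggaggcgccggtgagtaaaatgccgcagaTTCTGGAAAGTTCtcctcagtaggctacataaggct
Dnaja1 has 1 match, Hspd1 3 that overlap in a single run, and Hsph1 3, of which 2 overlap. The element was found in 4534 of the 33469 promoters (13.5%), in 10 of 16 cytosolic and 3 of 8 mitochondrial chaperone genes with a promoter in the table.

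Genes of hepatocyte metabolism had medians above 0 as well. Of 21 genes of fatty acid oxidation and ketogenesis, 12 were higher and 0 lower at an unadjusted p under 0.05 (57.1%, against 24.8% higher among bright genes). The median was 0.27, and 0.14 with the covariate, where 5 were higher and 1 lower (5.49% and 6.37% of all genes). Hadha, the alpha subunit of the mitochondrial trifunctional protein, was at 9.07 to 10.33, median 9.96, in IPC+IPO and at 8.22 to 10.22, median 9.19, in IRI, so the groups overlapped widely (difference 0.62 ± 0.17, limma adjusted p = 0.0942). Acadm, the medium-chain dehydrogenase, differed by 0.46 ± 0.15 and Cyp4a1, an omega-hydroxylase under control of PPAR alpha, by 0.58 ± 0.17. Fgf21, a hormone of fasting and stress made by hepatocytes, ran from 6.58 through 8.69 to 10.03 against 6.27 through 7.43 to 9.04, a difference of 1.01 ± 0.34 (adjusted p = 0.109). Without the 3 low-spread arrays all 12 calls in this list were higher.

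Angptl4, a secreted inhibitor of lipoprotein lipase that fasting and glucocorticoids induce, differed by 1.03 ± 0.29 (2.05-fold, adjusted p = 0.0942) with 7 IPC+IPO rats above all IRI rats. Of 20 glucocorticoid-induced genes, 17 of them bright, 8 were higher (40%, against 24.8% of bright genes) and 0 lower, with Fkbp5 at 0.52 ± 0.17. With the covariate 3 were higher and 0 lower. All 17 gluconeogenesis and glycogen genes had a difference above 0, against 46.2% of all genes, but all 17 are bright, and the median of bright genes was 0.18. Of the 17, 6 were past an unadjusted p of 0.05 (35.3%, against 24.8% higher among bright genes), and with the covariate 0 were. The median of this list was 0.30, and 0.07 with the covariate. In cholesterol and fatty acid synthesis 2 of 22 genes were higher and 1 lower, with a median of 0.05 that was -0.15 with the covariate. Of 24 N-glycan processing enzymes, 17 of them bright, 8 were higher (33.3%) and 2 lower (8.33%). Ganab, glucosidase II alpha, differed by 0.60 ± 0.17, Stt3a by 0.58 ± 0.17, and Mgat2, which adds the second antenna of complex glycans, by -0.42 ± 0.14. Of 20 acute phase protein genes, all bright, 7 were higher (35%) and 0 lower, with Lbp, the lipopolysaccharide binding protein, at 0.76 ± 0.21.

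Ribosomal protein genes, the structural part of the translation machinery, had a median below 0. Of 68 cytosolic ribosomal protein genes, 67 of which are bright, 2 were higher and 21 lower at an unadjusted p under 0.05 (30.9% lower, against 3.41% lower among bright genes). The median was -0.15, and it was -0.23 with the covariate, with 1 higher and 26 lower, and -0.11 without the 3 low-spread arrays, with 1 called higher and 4 lower. Rps14 was at 10.34 to 11.61, median 10.86, in IPC+IPO and at 10.73 to 12.27, median 11.71, in IRI, a difference of -0.78 ± 0.21 (limma adjusted p = 0.0942). The lowest IRI value of Rps14 was that of animal 1, and 3 IPC+IPO rats lay below all IRI rats. Rpl36 differed by -0.44 ± 0.12, Rps10 by -0.37 ± 0.11 and Rpl11 by -0.39 ± 0.12. The same list stood at a median of 0.25 in IRI minus sham, a comparison that shares the IRI rats, so both values move with the IRI level. Of 23 ribosome biogenesis factors, which build the ribosome but are not part of it, 16 are bright. In this list 6 were higher (26.1%, close to the 24.8% of bright genes) and 0 lower. Ncl (nucleolin) differed by 0.77 ± 0.25 and Rrs1 by 0.61 ± 0.18. The list's median was 0.15, and 0.02 with the covariate. Of 30 proteasome subunits, all bright, 7 were higher (23.3%) and 5 lower (16.7%), with a median of 0.12. With the covariate the balance turned, to 3 higher and 9 lower and a median of -0.08. The catalytic subunit gene Psmb5, the beta subunit gene Psmb4 and the catalytic subunit gene Psmb6 differed by -0.42 ± 0.13, -0.55 ± 0.15 and -0.48 ± 0.15, and Psmd1 of the regulatory particle by 0.56 ± 0.18.

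Markers of liver cell types differed in how many members passed. In a biopsy, fewer cells of a type and less RNA per cell cannot be told apart. Of 16 Kupffer cell and macrophage markers, 14 of them bright, 8 were higher (50%, against 24.8% of bright genes) and 0 lower at an unadjusted p under 0.05. With the covariate 4 were higher and 0 lower. The median was 0.35, and 0.17 with the covariate. The mean level of the list ran from 7.01 to 8.07 in IPC+IPO and from 6.59 to 7.84 in IRI, so the groups overlapped. Cd5l, a scavenger protein gene of Kupffer cells, differed by 0.73 ± 0.24, Cd68 by 0.64 ± 0.21 and Adgre1, a macrophage surface receptor gene, by 0.54 ± 0.17 (adjusted p = 0.107, 0.109 and 0.107). Genes of antigen presentation on MHC class II, which macrophages also express, were higher in 7 of 12 (58.3%) and lower in 0. Of these 12 genes 9 are bright, and with the covariate 3 were higher and 0 lower. Cd74, the invariant chain, was at 8.30 to 10.13, median 9.45, against 7.61 to 9.61, median 8.79 (difference 0.75 ± 0.24). Ifi30, a lysosomal thiol reductase gene, differed by 0.41 ± 0.14. The medians of both lists were 0.003 and -0.04 against IPC and 0.09 and -0.03 against IPO.

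The markers of blood cells are mostly dimmer than those of macrophages, 14 of 16 of which are bright. Of 15 neutrophil markers, none of which is bright, 1 was higher and 2 lower (median -0.09, against -0.11 over the dimmest genes, and 0.03 with the covariate), at a mean level of 4.86 to 5.71 in IPC+IPO and 4.90 to 5.39 in IRI. Of 18 lymphocyte markers, 2 of which are bright, 2 were higher and 1 lower (median 0.03), and with the covariate 4 and 1 (median 0.08), at a mean level of 4.87 to 5.52 and 4.94 to 5.22. Erythroid and platelet markers all had a difference below 0 (10 of 10, against 53.8% of all genes), with a median of -0.165 and Hbb, a beta globin gene, at -0.59 ± 0.24; 0 were higher and 2 lower at an unadjusted p under 0.05. Their mean level ran from 6.46 to 7.58 in IPC+IPO and from 6.77 to 7.84 in IRI. Of 14 sinusoidal endothelial markers, 8 of them bright, 4 were higher (28.6%) and 1 lower (7.14%). Of 20 stellate and mesenchymal markers, 10 of them bright, 4 were higher (20%) and 0 lower. All 15 hepatocyte markers are bright, and 4 were higher (26.7%) and 0 lower. Their median was 0.14, with Ass1, a urea cycle enzyme gene, at 0.51 ± 0.15. The share of these cell types in the differences above was not tested. Among 26 cytokine and chemokine genes 3 were higher and 1 lower, with Il1rn, the interleukin 1 receptor antagonist, at 0.65 ± 0.19 and Il1a at 0.73 ± 0.27, and of 32 interferon-stimulated genes 1 was higher and 0 lower.

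**Figure D5:**
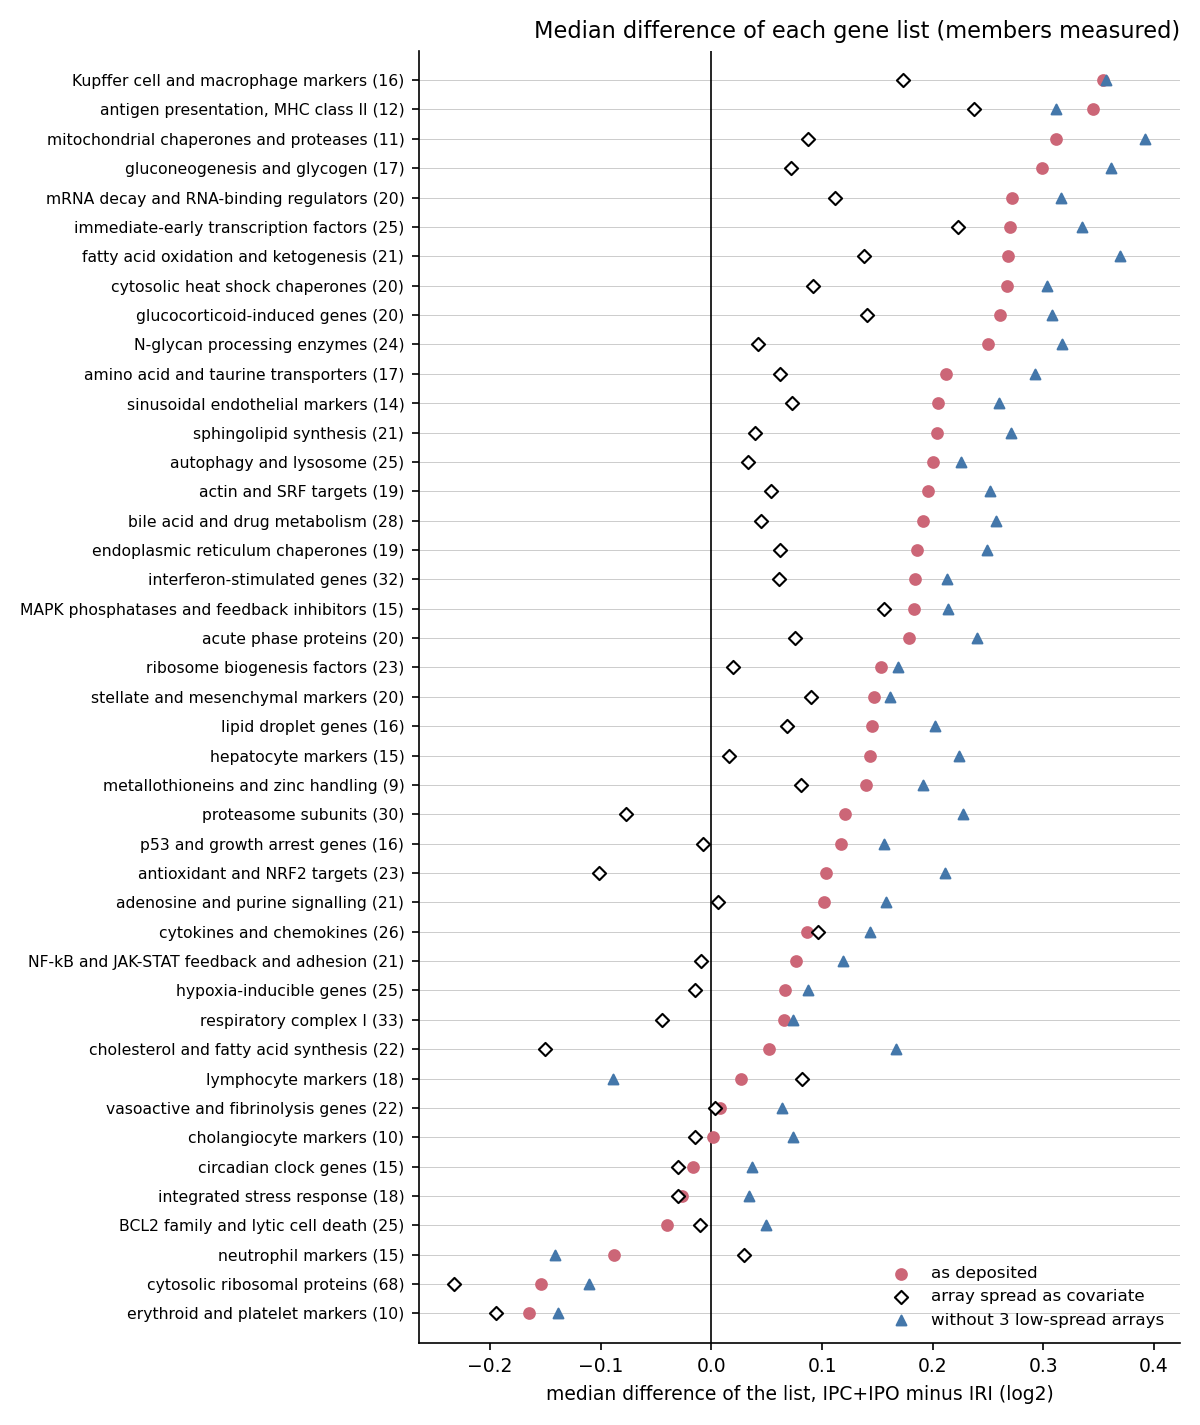
Median difference between IPC+IPO and IRI (horizontal axis, log2) of each gene list (vertical axis, members measured in brackets), as deposited, with array spread as a covariate and without the 3 low-spread arrays. Kupffer cell and macrophage markers are at 0.35, and ribosomal proteins are below 0 in all 3 settings, at -0.15, -0.23 and -0.11.

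Whether combining the interventions differed from either one was tested against the IPC and IPO groups directly, in the same fit of all 5 groups. The IRI rats have no part in these differences, but they do in the variance behind their tests. Against IPC, limma called 0 genes (0%), with 235 at an unadjusted p under 0.05 (1.62%) and a smallest adjusted p that rounds to 1. Against IPO it called 0 (0%), with 482 at an unadjusted p under 0.05 (3.32%) and a smallest adjusted p of 0.229. Of the 24 genes of smallest p against IRI, 3 (Kdsr, Jam2 and Ppp3cc) had an unadjusted p under 0.05 against IPC and 0 against IPO. The 24 were picked in the same IPC+IPO arrays that enter these differences, which favours a difference in advance. The 3 genes, and the interval of Kdsr below, are therefore no separate support and are not set against the 1.62% of all genes. For Kdsr the difference was 0.28 ± 0.14 (95% interval 0.00 to 0.56) against IPC and 0.06 ± 0.14 (95% interval -0.23 to 0.34) against IPO. For Retsat the IPC, IPO and IPC+IPO means were 10.53, 10.56 and 10.56 against 9.30 in IRI. The differences of the combined group from IRI and those of IPC and IPO from IRI share the IRI rats, so their likeness is not counted here as a result.

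The genes that came nearest to the threshold between the conditioned groups were others. They were chosen after their values were seen. Mt1 and Mt2A code for metallothioneins, small zinc-binding proteins that glucocorticoids, metals and stress induce. For Mt2A the group means were 11.93 in IPC+IPO, 11.79 in IPC, 11.99 in IRI, 10.47 in IPO and 11.04 in sham, and the difference from IPO was 1.45 ± 0.31 (limma adjusted p = 0.229). For Mt1 it was 1.05 ± 0.24. The difference from IRI was -0.06 ± 0.31 for Mt2A and -0.17 ± 0.24 for Mt1. IPC+IPO animal 34 had the lowest value of its group in both genes, and without it both were called against IPO (adjusted p = 0.0393 and 0.0405), at 1.61 and 1.20. Tmprss2, a membrane serine protease gene, differed from IPO by -0.42 ± 0.09. With array weights 12 genes were called against IPO, these 3 among them.

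Mgat2 was the gene that set the combined group apart from IPC in 1 setting. It stood at 7.49 to 8.997, median 8.67, in IPC+IPO, and the means of IRI, IPC and IPO were 8.98, 9.05 and 8.91 and that of sham 8.61. Its difference from IPC was -0.50 ± 0.14, with a limma adjusted p that rounds to 1 as deposited and of 0.0255 after renewed quantile normalization. Against IRI it was -0.42 ± 0.14, and -0.60 ± 0.10 with the covariate (adjusted p = 0.00909). IPC+IPO animal 38 had the lowest value of its group and IRI animal 7 of its own. Stk25, called with the covariate at -0.38, differed by -0.19 ± 0.13 without it and by -0.04 without the 3 arrays. C5h1orf122 differed by -0.41 ± 0.11, and Dnajc8, a splicing co-chaperone gene, by 0.66 ± 0.17.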

How the data were processed

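The authors deposited log2 expression values for 29215 probe sets, made with RMA in Affymetrix Expression Console per the submitters' processing notes; versions and the day or slide of hybridization are not given in the sources used here. Platform annotation gave 1 gene symbol to 15310 probe sets, several to 323 and none to 13582; for each of 14506 genes the probe set of highest mean was used, with no filter on level. All 5 groups entered 1 limma 3.58.1 fit (R 4.3.3, lmFit and eBayes, 43 residual degrees of freedom), two-sided, with Benjamini-Hochberg adjustment over all genes and a threshold of 0.05. Probe sets of paralogues can share probes. Array spread was compared with 100000 permutations (Python 3.11.15, numpy 2.4.6), and figures were drawn with matplotlib 3.10.9. The fit was tested on data simulated with independent noise for each gene. Differences in spread between arrays were not simulated, so that test does not cover them.

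Named genes were the 24 of smallest p, passing over predicted loci and olfactory receptor genes, the up to 4 members of smallest p in each of 43 gene lists, and genes called in the other comparisons. Atf3, Ugt2b, Mt1, Mt2A and Tmprss2 fall outside that rule, as do Dnajc8, Mgat2, Nqo2, Stk25 and C5h1orf122, and were chosen after their values were seen. Members and lists were chosen with earlier results of these data known, and lists were described by counts and medians, not tested. Alternatives were the groups compared alone, a trended robust variance, array weights, no dim genes, other probe sets, median centring, renewed quantile normalization, spread as a covariate and each array left out; leaving out the 3 arrays of spread under 1.7 in the IRI and IPC+IPO groups, with the 6 such sham arrays kept, was added after the data were seen. Promoter sequences are RefSeq's. The number of arrays limits the precision.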

Additional observations from a re-analysis of the deposited data

Results flagged for a closer look

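Dixon's ratio was taken for the 103 genes named in the text and for array spread in both groups. It set an extreme value apart from the rest of its group in 25 of 208 cases, where chance gives about 1 in 20. Values are log2 expression, and these arrays are in all the differences above except those said to be without an array.

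In the IRI group 7 of the 13 lie with animal 7, the array of lowest spread in that group, as its lowest value: Glrx at 6.20 (the next rat stood at 7.34), Zmpste24 at 5.39, Degs1 at 6.62, Hnrnpd at 6.68, Hspd1 at 7.80, Dnajb4 at 5.16 and Psmd1 at 6.44. Another 4 lie with IRI animal 1, also as lowest values: Rpl36 at 10.57, Rps10 at 10.30, Psmb6 at 9.10 and Hbb at 11.36 (next 12.53). Atf3 was highest in IRI animal 5, at 10.96 (next 8.47), and Il1a lowest in IRI animal 10, at 5.50.

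In the IPC+IPO group 8 of the 12 were lowest values of animal 38: Retsat at 8.27 (next 10.13), Nqo2 at 7.32, Mgat2 at 7.49, Psmd1 at 7.30, Slc3a2 at 7.72, Hif1a at 6.82, Ndufs1 at 7.73 and Stat3 at 6.61 (next 7.76). Animal 37 was highest for Hipk4 at 5.16 and for Socs1 at 6.54, and lowest for Slc7a5 at 4.43. Animal 34 was highest for Psmb6, at 10.20. The share of array spread in these values was not tested.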

How the results depend on the processing

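Against IRI, the count of 0 genes was the same with only the groups compared, a trended robust variance, median centring, no dim genes, the probe set of largest variance and all probe sets. It was 4484 with array weights, 113 after renewed quantile normalization, 9 with the spread covariate and 1612 without the 3 IRI and IPC+IPO arrays of spread under 1.7 (the 6 such sham arrays were kept). Leaving out single arrays gave 0 to 1705. Members of the gene lists called, 0 of 870, became 318, 17, 3 and 131 in those 4 settings, and 0 to 139 with single arrays left out (139 without IPC+IPO animal 38, 87 without IRI animal 1). Against IPC the count was 1 after renewed quantile normalization and 0 otherwise, with 0 for every array left out. Against IPO it was 12 with array weights, 0 to 2 with single arrays left out (2 without IPC+IPO animal 34) and 0 otherwise. The difference in array spread was 0.0628 to 0.128 with single arrays left out, past the threshold without IPC+IPO animal 38 at 0.128. The difference of Mt1 against IRI was 0.0299 with array weights; that of Mt2A was 0.0743 with array weights and -0.171 to 0.0924 with single arrays left out, above 0 without IPC+IPO animal 31 or 34. No other named gene turned its direction under any setting run. The median of the vasoactive list was 0.166 without the dimmest genes, and the other 42 list medians stayed within 1 SD of the IRI rats. Why these settings differ was not tested. No paired analysis was possible because no animal number occurs in more than 1 group. No value rests on a count or depth; signal over background was not used here.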

Other observations

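Gene groups not described above gave mixed counts in IPC+IPO against IRI, and every count here is at an unadjusted p under 0.05. By that measure 11.5% of all genes were higher and 9.96% lower, and of bright genes 24.8% and 3.41%. All 19 endoplasmic reticulum chaperones and all 33 complex I genes below are bright. So are 24 of the 28 bile acid and drug metabolism genes and 19 of the 25 autophagy and lysosome genes. Of 19 endoplasmic reticulum chaperones 6 were higher and 2 lower; the calcium-binding chaperone gene Calr differed by 0.41 ± 0.14 and the disulfide isomerase gene Pdia3 by 0.40 ± 0.14, while Sdf2l1, which is induced when unfolded proteins build up, differed by -0.52 ± 0.19 and Selenos by -0.43 ± 0.15. Of 18 integrated stress response genes 3 were higher and 2 lower. The 2 chains of 1 amino acid transporter were in opposite directions there: Slc3a2, the heavy chain, differed by 0.51 ± 0.16 and Slc7a5, a light chain, by -0.39 ± 0.11. They also differ in level, at 6.82 to 8.87 in the IRI rats for Slc3a2 and 5.07 to 5.97 for Slc7a5. IRI animal 7, of low spread, had the lowest IRI value of Slc3a2 and the highest of Slc7a5. The share of level and spread in these signs was not tested. Of 17 amino acid and taurine transporters 7 were higher and 3 lower, with Slc38a4, a neutral amino acid transporter gene of hepatocytes, at 0.54 ± 0.15. Of 25 hypoxia-inducible genes 3 were higher and 2 lower, with the transcription factor gene Hif1a at 0.49 ± 0.17 and the mitophagy receptor gene Bnip3 at -0.48 ± 0.18.

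Of 25 autophagy and lysosome genes 4 were higher (16%) and 0 lower, with Lamp2 at 0.43 ± 0.14 and cathepsin B (Ctsb) at 0.45 ± 0.16. Of 28 bile acid and drug metabolism genes 7 were higher (25%) and 1 lower (3.57%), close to the shares of bright genes. Cyp1a2 differed by 0.59 ± 0.17 and the bile acid importer gene Slc10a1 by 0.37 ± 0.12. Of 33 complex I subunit genes 4 were higher (12.1%) and 3 lower (9.09%), with Ndufs1 at 0.66 ± 0.20 and Ndufa6 at -0.39 ± 0.13. Lipid droplet genes were higher in 3 of 16 and lower in 2, with Cideb at 0.51 ± 0.17 and the perilipin gene Plin1 at -0.32 ± 0.13. Of 21 NF-kB and JAK-STAT feedback genes 2 were higher and 2 lower, with Stat3 at 0.43 ± 0.18 and its inhibitor Socs1 at -0.37 ± 0.12. Of 16 p53 and growth arrest genes 3 were higher and 0 lower, of 25 BCL2 and lytic death genes 3 and 1, of 15 clock genes 1 and 0, of 9 metallothionein and zinc genes 1 and 0, and of 10 cholangiocyte markers 0 and 1.

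Ugt2b, which codes for a glucuronosyltransferase of steroid and drug conjugation, was the only gene of 14506 whose 48 arrays fell into 2 levels separated by a gap of at least 2 on the log2 scale with 3 or more arrays on each side. In 10 rats it lay between 3.96 and 5.99, and in the other 38 between 9.23 and 11.44. The 10 were 4 sham, 3 IPO and 3 IPC+IPO rats (animals 34, 37 and 38), with 0 among the IRI and 0 among the IPC rats. This is the gene that was at least 2-fold lower in IPC+IPO than in IRI, at -1.41 ± 0.97 (limma adjusted p = 0.37), although the group medians were 10.81 and 10.76. IPC+IPO animals 37 and 38 are also the arrays of low spread, and animal 34 is not, with a spread of 1.85. What the 10 rats share was not tested.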
